A study of Ovis aries with 9 samples.

Results

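Interferon-stimulated genes, the antiviral set that cells switch on when interferon binds its receptor, were followed in the ovaries of 9 ewes, with IFI6 as the gene around which the set was chosen. The set was named as 41 interferon-induced genes and their regulators, and it was picked because IFI6 was lower in Han than in Dorset ewes, so its values between the breeds are described here without a test. Of the 41 genes, 37 had a row under their own symbol, ISG15 had one under its older symbol ISG17, USP18 and SP110 were found by their gene number, and BST2 had none. This gave 40 of the 27174 rows in the table, and 38 of them were among the 16871 rows with enough reads to be tested.

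The 3 Dorset ewes (D4, D5 and D6) came from a breed of low fecundity and served as controls. The Small Tail Han ewes, a breed of high fecundity, were 3 animals carrying the FecB mutation of the BMPR1B gene on both chromosomes (Han BB, genotype FecBBFecBB, animals W1, W2 and W4) and 3 without it (Han ++, genotype FecB+ FecB+, animals W6, W7 and W8). All were adult ewes given fluorogesterone acetate sponges and then pregnant mare serum gonadotropin, and whole ovaries were taken after a later spontaneous estrus. The FecB genotype of the Dorset ewes is not given in the sources used here. Breed and any difference in FecB genotype therefore cannot be told apart between Han BB and Dorset.

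Interferons are signalling proteins that infected or stressed cells release. Type I interferons bind the receptor IFNAR1 and IFNAR2, and the kinases JAK1 and TYK2 then activate factors such as STAT2, which joins IRF9 to turn on genes for RNA sensors, antiviral enzymes and the machinery that displays peptides to T cells. In sheep, the early embryo itself secretes an interferon, interferon tau, which acts on the uterus and reaches the corpus luteum in the ovary, and ISG15 and MX1 are well known as genes that answer it.

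Each ewe gave 1 library, with 10803913 to 20992535 counted reads. The libraries W4 and D6 were closer to each other than to the other libraries of their groups (rank correlation of 0.978 over genes), and 1 row, LOC101101865, held 14.9% of the reads of D4 and 0.0107% of those of D6. Ovarian markers of granulosa, theca and luteal cells and of the oocyte were present in all libraries, although the granulosa genes FOXL2 and CYP19A1 had no row. BMPR1B itself stood at 0.779 CPM (read counts scaled to a common library size with TMM factors) or less in every library, too few reads to compare the genotypes. All levels are in this unit, and in whole ovary a smaller number of expressing cells and less RNA per cell cannot be told apart. All libraries also held reads of the 7 markers of oviduct or ciliated epithelium. Their sum was at most 883 CPM among the Dorset ewes and at least 920 CPM among the Han ewes. With both Han groups as 1, 6 of these genes were higher than in Dorset and 1 was lower, with a median log2 fold change of 1.17. Whether this bears on the other values between the breeds was not tested.

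IFI6, a small interferon-induced mitochondrial protein linked to cell survival, was the starting point. It stood at 1146 CPM in D4, 1308 in D5 and 229 in D6. In the Han BB ewes it stood at 353 CPM in W1, 206 in W2 and 117 in W4, and in the Han ++ ewes at 186 in W6, 211 in W7 and 168 in W8. Both D4 and D5 lay far above all 6 Han ewes, but D6 lay below W1, so Dorset and Han overlapped. The means were 894 ± 582 CPM in Dorset, 225 ± 119 in Han BB and 188 ± 21.7 in Han ++ (SD, n = 3 each).

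On the log2 scale IFI6 was -1.99 (SE 0.59) in Han BB and -2.25 (SE 0.60) in Han ++ relative to Dorset, and -2.12 (SE 0.48) with both Han groups as 1. Without D5 the last value was -1.72, and without D4 it was -1.90. The low Dorset ewe D6 was also the library closest to W4, which had the lowest IFI6 of all. The part of that likeness in the IFI6 level of D6 was not tested.

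**Figure D1:**
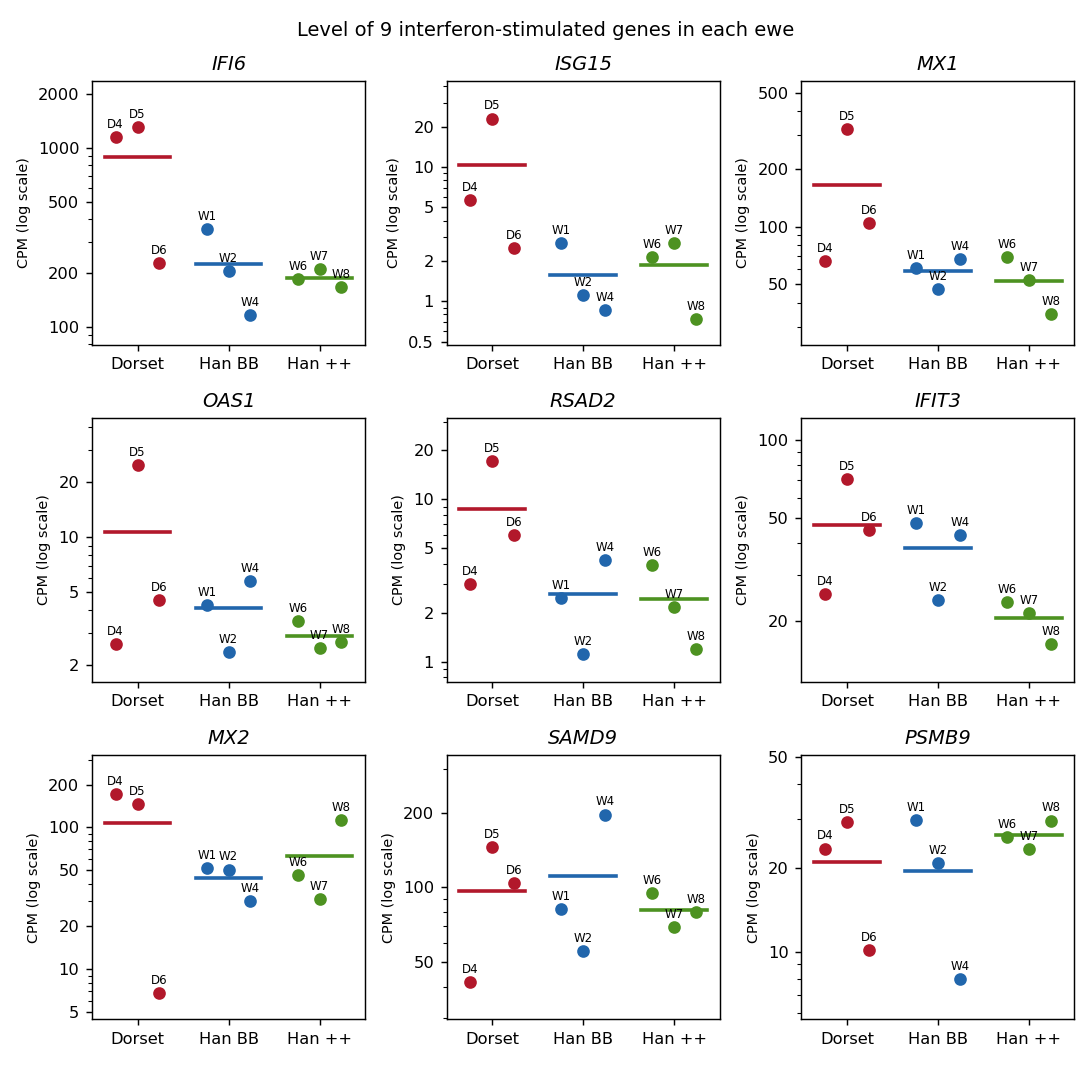
Level of 9 interferon-stimulated genes in each ewe, in CPM on a log axis; each point is 1 library, labelled by animal, and each bar is the mean of 3. D4 and D5 share the high level of IFI6, while D5 stands above all other libraries for ISG15, MX1, OAS1 and RSAD2, with D4 second for ISG15, and W4 is the highest library for SAMD9.

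ISG15, a ubiquitin-like protein that is attached to other proteins after interferon, stood at 5.64 CPM in D4, 22.9 in D5 and 2.51 in D6. In Han BB it stood at 2.71, 1.12 and 0.870 CPM in W1, W2 and W4, and in Han ++ at 2.15, 2.71 and 0.737 in W6, W7 and W8. D4 and D5 were the highest libraries, as for IFI6, but D5 was 4.07 times as high as D4, and D6 lay within the range of the Han ewes. The row held 8 to 509 reads per library, so its low values carry a large counting error.

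MX1, a dynamin-like GTPase that traps viral particles, was far higher in D5 than in any other ewe. It stood at 66.4 CPM in D4, 322 in D5 and 104 in D6, at 60.9, 47.3 and 67.6 in W1, W2 and W4, and at 69.2, 52.4 and 35.2 in W6, W7 and W8. D4 lay among the Han ewes, below W4 and W6. D5 was 3.09 times as high as the next library, which was D6, and D6 also lay above all Han ewes.

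OAS1 is an antiviral enzyme that senses double-stranded RNA and makes short oligoadenylates. It stood at 2.63 CPM in D4, 24.7 in D5 and 4.52 in D6, at 4.27, 2.38 and 5.75 in W1, W2 and W4, and at 3.48, 2.49 and 2.67 in W6, W7 and W8. D5 was 4.30 times as high as the next library, which was the Han BB ewe W4, and the other Dorset ewes lay among the Han ewes.

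RSAD2, known as viperin, makes a nucleotide that stops viral RNA synthesis. It stood at 3.02 CPM in D4, 17.2 in D5 and 6.03 in D6, at 2.47, 1.12 and 4.21 in W1, W2 and W4, and at 3.96, 2.17 and 1.2 in W6, W7 and W8. D5 was 2.85 times as high as D6, which also lay above all Han ewes, and D4 lay below W4 and W6.

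Counted over the set, D5 was the highest of the 9 libraries for 24 of the 38 genes tested, where it was highest for 12.3% of all genes tested. It was the lowest for 0 of the 38, against 13.2% of all genes. D5 was over 1.5 times the highest other library for 12 of them (1.61% of all genes) and over 2 times for 9 (0.308% of all genes), namely DDX58, IRF7, ISG15, HERC6, MX1, IFIT1, OAS1, OAS2 and RSAD2. D5 was singled out after its values were seen, and as a Dorset ewe it enters the contrast by which the set was chosen, so these counts are a description.

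By role, D5 was highest for 4 of 4 transcription factors (STAT2, IRF9, IRF7 and IRF1), for 4 of 4 OAS and nucleotide enzymes (OAS1, OAS2, RSAD2 and the nucleotide kinase CMPK2) and for 3 of 4 IFIT genes, whose proteins bind foreign RNA. It was highest for 3 of 5 sensors, 4 of 8 genes of the ISG15 and ubiquitin group, 1 of 2 MX genes, 3 of 7 other antiviral genes and 2 of 4 genes for the chemokine CXCL10 and for antigen processing. The median gene of the set lay 1.01 above its own median over the 9 libraries in D5 on the log2 scale, with 37 of 38 genes above it. In the other 8 libraries the same median ran from -0.36 in W8 to 0.24 in D6, and W8 was the lowest library for 11 of the 38 genes (9.66% of all genes).

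**Figure D2:**
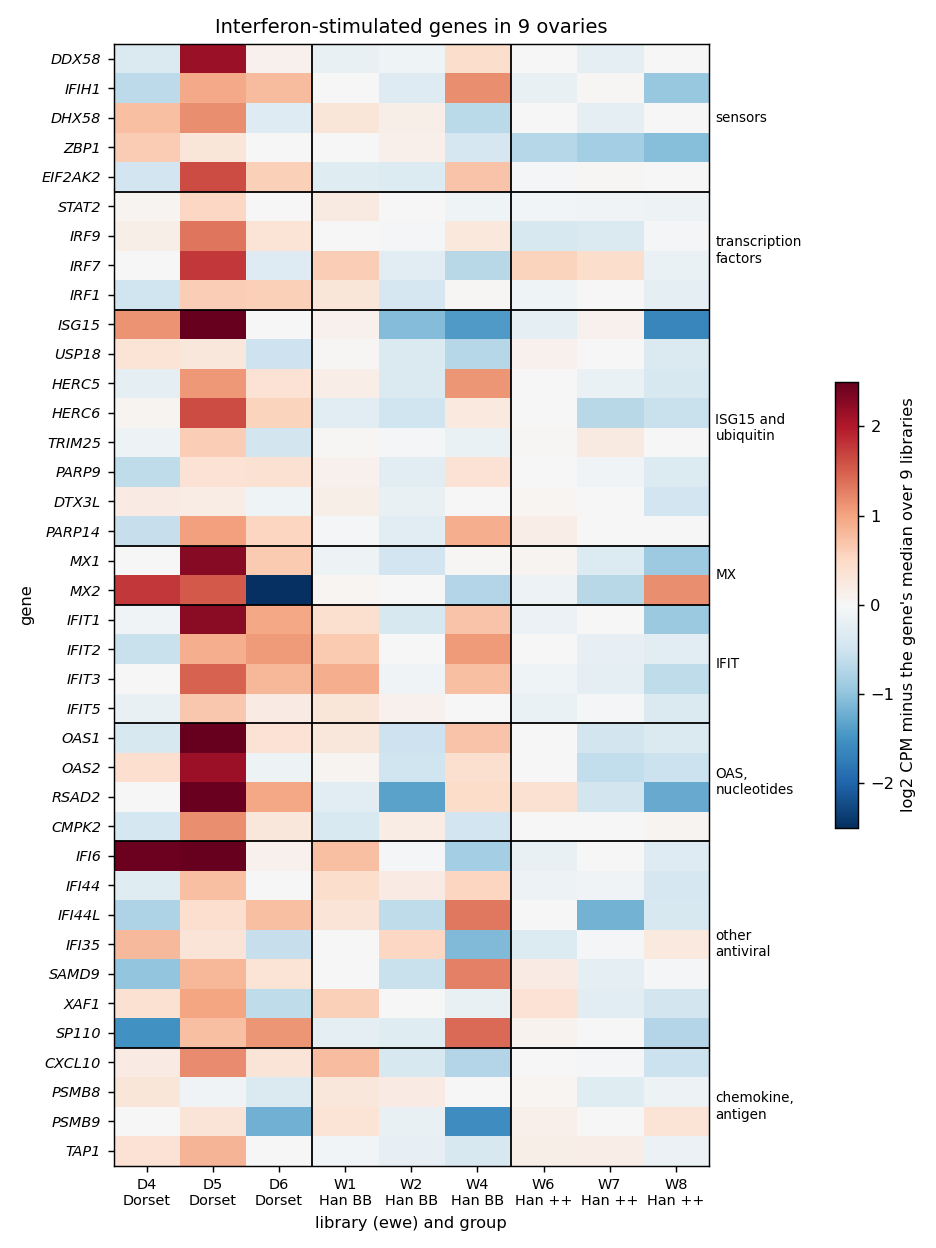
Each row is 1 of the 38 tested genes and each column 1 library; colour gives log2 CPM minus the median of that gene over the 9 libraries, with values beyond 2.5 either way drawn in the end colour. The column of D5 is red for 37 of 38 genes, IFI6 is also deep red in D4, and W8 is mostly blue.

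Markers of other cells and states were set beside the D5 values. The 3 leukocyte markers PTPRC, CORO1A and LCP1 summed to 151 CPM in D5, the lowest of the 9 libraries, against 211 to 421 CPM in the Han BB ewes and 220 to 318 in the Han ++ ewes. Of the 3, LCP1 was itself lowest in D5, while PTPRC was lowest in D4 and CORO1A in W4. The 8 T cell markers summed to 29.9 CPM in D5 and to 28.0 to 43.5 over all libraries. The 8 macrophage markers with a row, of 9 listed, summed to 318 CPM in D5, 294 in D6 and 1067 in D4, but CSF1R of that list was highest in D5, at 42.9 CPM against 10.8 in D4.

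The 4 markers of plasmacytoid dendritic cells with a row summed to 201 CPM in D5 and to 137 to 282 over all libraries. The defining genes CLEC4C and LILRA4 of those cells had no row. The 5 B cell, 4 NK cell and 5 neutrophil markers with a row summed to 3.65, 2.84 and 2.71 CPM in D5, and the NK cell gene GNLY was at 0 reads in all libraries. The 6 luteal markers summed to 271 CPM in D5, the lowest of the 9, and to 357 to 1717 in the Han ewes and D4 and D6. D5 was itself lowest for 2 of the 6 genes. OXT, the oxytocin gene of the corpus luteum, had 42 reads in D5 and 143 to 12517 in the others. The 4 theca markers, of which STAR and LHCGR are also luteal markers, summed to 83.0 CPM in D5, again the lowest, and to 147 to 309.5 elsewhere. The 7 markers of oviduct or ciliated epithelium summed to 427 CPM in D5, also the lowest, and to 541 to 2088 elsewhere. Gene by gene, D5 was lowest for 1 of the 4 theca markers and for 3 of these 7. The 5 granulosa markers with a row summed to 270 CPM in D5 and to 80.2 to 273 over all libraries, and D5 was highest for 2 of the 5. The part of these values in the level of the interferon-stimulated genes in D5 was not tested.

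The Han BB ewe W4 was highest for 5 of the 38 genes, a smaller share than the 21.3% of all genes for which it was highest. They were IFIH1 and HERC5, a sensor of long double-stranded RNA and the ligase that attaches ISG15, with IFI44L, SAMD9 and SP110. SAMD9, a brake on protein synthesis during viral infection, stood at 41.7, 145 and 104 CPM in D4, D5 and D6, at 82.2, 55.7 and 196 in W1, W2 and W4, and at 95.1, 69.4 and 79.6 in W6, W7 and W8. For 15 of 38 genes W4 and D6 were both among the 3 highest libraries, against 25.1% of all genes.

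D4 was the highest library for 6 of the 38 genes, against 22.1% of all genes, and D4 and D5 were the 2 highest libraries for 9 of the 38 genes, as they were for IFI6, against 5.07% of all genes. These were DHX58, ZBP1, ISG15, USP18, DTX3L, MX2, OAS2, IFI6 and TAP1. MX2, the second dynamin-like GTPase, stood at 171, 146 and 6.81 CPM in D4, D5 and D6, at 51.9, 50.4 and 30.2 in W1, W2 and W4, and at 45.8, 31.0 and 113 in W6, W7 and W8. Its Dorset ewes thus held both the highest and the lowest value of all 9 libraries, unlike MX1.

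Between the breeds, 36 of the 38 genes had a lower fitted level in the Han groups together than in Dorset, where 54.5% of all genes tested did, and the median log2 fold change was -0.49 against -0.04 over all genes. The set was chosen on this contrast, so nothing is read from the count. No gene of the set was lower in all 6 Han ewes than in all 3 Dorset ewes (1.93% of all genes were), and none was higher in all 6 (1.83%). A gene counted as called when it changed over 1.5 times with an adjusted p under 0.05. edgeR's quasi-likelihood test called 0 of all 16871 genes in Han against Dorset (0% of all genes), 0 in Han BB against Dorset and 1 in Han ++ against Dorset (0.00593%). At an unadjusted p under 0.05 the numbers were 1033, 842 and 889 in that order. DESeq2 called 88, 38 and 65, and limma called 0 in each.

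The lowest log2 fold changes, Han over Dorset, were those of ISG15 at -2.58 (SE 0.65), IFI6 at -2.12, RSAD2 at -1.79 (SE 0.57), OAS1 at -1.63 (SE 0.59) and MX1 at -1.57 (SE 0.42). Without D5 they were -1.22, -1.72, -0.84, -0.06 and -0.62, in that order. Without D5, OAS1 kept almost none of its difference. The value left for IFI6 rested on D4 at 1146 CPM, as D6 at 229 CPM lay within the range of the Han ewes. IFI6 was the gene by which the set was chosen, so nothing is read from what it kept. Over the set, the median without D5 was -0.15, against -0.05 over all genes. Without D5, 27 of 38 genes were lower in Han, where 9255 of all 16858 genes then tested were lower. Of the 36 genes that were lower in Han with D5, the log2 fold change of 24 came to less than 50% of that value or turned positive. D5 was singled out for its high values, so leaving it out moves such genes toward 0 by construction. The same count was not made over all genes, and nothing is read from it.

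**Figure D3:**
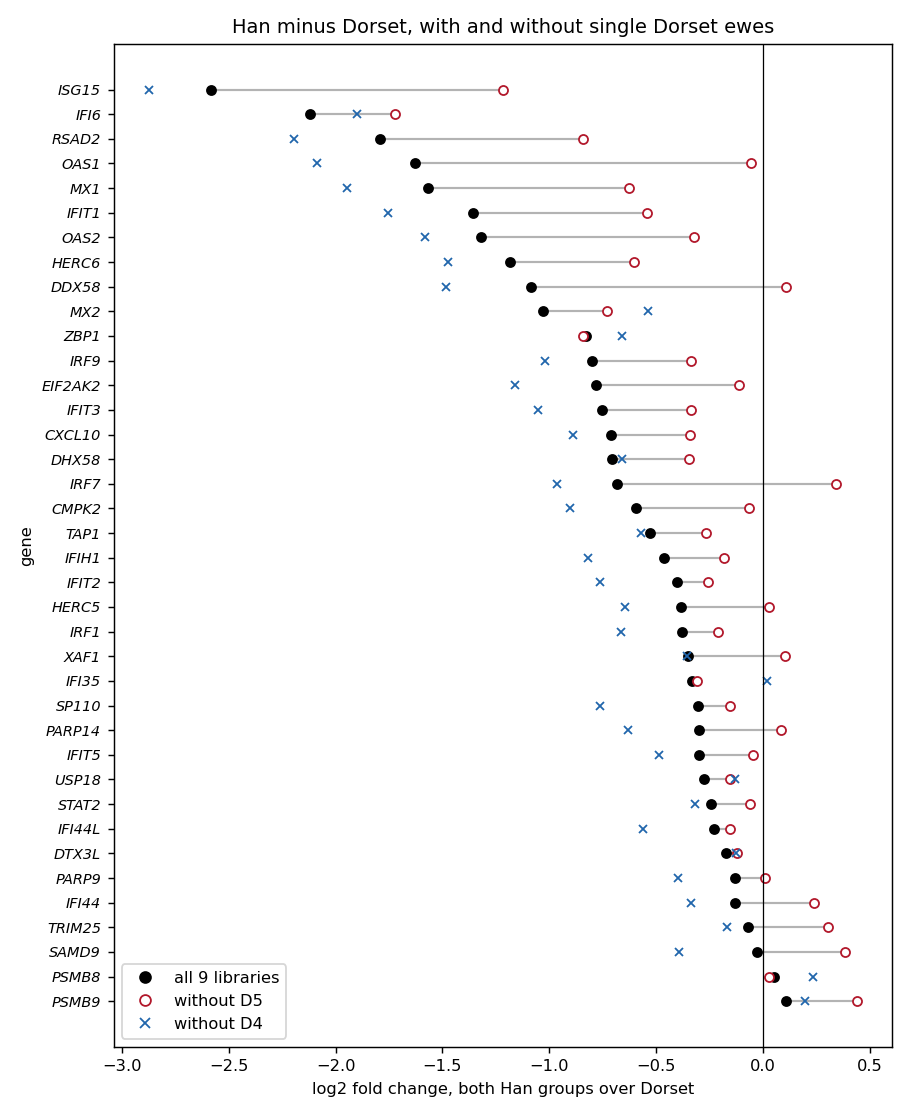
log2 fold change of each of the 38 genes, the Han groups together over Dorset, from all 9 libraries (black), without D5 (open red) and without D4 (blue cross). Removing D5 moves most genes toward 0 and leaves 11 above it, whereas removing D4 leaves 35 of 38 below 0.

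At the other end were the proteasome subunits PSMB8 and PSMB9, which cut peptides for display on class I molecules. PSMB8 stood at 66.7, 51.0 and 42.6 CPM in D4, D5 and D6, at 66.0, 62.8 and 54.4 in W1, W2 and W4, and at 56.3, 43.9 and 49.9 in W6, W7 and W8, with a log2 fold change of 0.05 (SE 0.22). PSMB9 stood at 23.5, 29.2 and 10.1 CPM in the same Dorset ewes, at 29.7, 20.7 and 7.96 in the Han BB ewes and at 25.7, 23.3 and 29.6 in the Han ++ ewes, with a log2 fold change of 0.11 (SE 0.42). The groups overlapped for both, and D6 and W4 were the lowest libraries for PSMB9.

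The separate groups were read side by side, and they share the same 3 Dorset libraries. The median log2 fold change of the set was -0.37 in Han BB over Dorset and -0.71 in Han ++ over Dorset, against -0.01 and -0.06 over all genes. Without D5 it was -0.02 and -0.29, against -0.01 and -0.07 over all genes. In Han BB, 1 gene, TAP1, the transporter that carries peptides to class I molecules, was lower in all 3 ewes than in all 3 Dorset ewes (4.52% of all genes). In Han ++ there were 7 such genes (5.59% of all genes), which were ZBP1, STAT2, IRF9, HERC6, IFIT3, IFI6 and CXCL10. None was higher in all 3 Han BB ewes (4.27% of all genes) or in all 3 Han ++ ewes (5.47%) than in all Dorset ewes.

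The comparison of Han BB with Han ++, the 2 FecB genotypes within 1 breed, was not used to choose the set and was tested. edgeR's quasi-likelihood test called 0 of the 38 genes and 0 of all 16871 (0%), and 1 of the 38 had an unadjusted p under 0.05, against 332 of all genes (1.97%). DESeq2 and limma called 2 of all genes each and 0 of the 38, with 1 and 4 of them at an unadjusted p under 0.05. The p-values of edgeR rest on the spread between ewes of a group, 3 in each, estimated in 1 fit to all 9 libraries. The Dorset ewes therefore enter this estimate as well. Without D6 the SE in Han BB over Han ++ went from 0.572 to 0.385 for IFI6 and from 0.833 to 0.433 for MX2. Without D5 it went from 0.56 to 0.60 for IFI44L.

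IFI6 had a log2 fold change of 0.26 in Han BB over Han ++ (SE 0.57, 95% interval -1 to 1.52, adjusted p = 0.9995 in edgeR). Its 3 Han ++ values all lay between the highest and lowest Han BB values, so no difference was detectable with 3 ewes per group. Without W1 the log2 fold change was -0.24. For 37 of the 38 genes the interval included 0, and for 25 of the 38 it included a doubling in Han BB.

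IFIT3, which joins IFIT1 and IFIT2 in binding viral RNA, was the exception. It stood at 47.7, 24 and 42.9 CPM in W1, W2 and W4 and at 23.7, 21.4 and 16.2 in W6, W7 and W8, while D4, D5 and D6 stood at 25.4, 70.8 and 45.1. All 3 Han BB ewes lay above all 3 Han ++ ewes, W2 only just. The log2 fold change was 0.90 (SE 0.39, 95% interval 0.03 to 1.77, adjusted p = 0.9995 in edgeR), so it did not hold after adjustment.

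IFIT3 was 1 of 5 genes of the set with all Han BB ewes above all Han ++ ewes (4.78% of all genes), with ZBP1, IFIT2, IFIT5 and IFI44, and 0 genes lay the other way (4.59%). ZBP1, a sensor of nucleic acids in the Z form that can start necroptosis, stood at 3.99, 4.34 and 2.94 CPM in W1, W2 and W4, at 2.39, 2.17 and 1.84 in W6, W7 and W8, and at 6.23, 4.91 and 4.02 in D4, D5 and D6. Its log2 fold change was 0.81 (SE 0.39, adjusted p = 0.9995 in edgeR).

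IFIT2 stood at 25.6, 16.2 and 33.8 CPM in W1, W2 and W4, at 16.1, 14.0 and 13.3 in W6, W7 and W8, and at 11, 30.3 and 34.2 in D4, D5 and D6. Its log2 fold change of Han BB over Han ++ was 0.80 (SE 0.42), or 0.52 without W4, and W2 exceeded W6 by little. The median log2 fold change of the 4 IFIT genes was 0.71, the highest of the 8 role groups, and all 4 were positive. The 5 sensors were all positive as well, with a median of 0.16. Of the whole set, 29 of 38 genes were positive, against 9006 of all 16871 genes.

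IFI44L, whose protein dampens the interferon response, had the highest value of the set at 1.01 (SE 0.56). It stood at 8.26, 4.20 and 16.7 CPM in W1, W2 and W4, at 6.58, 2.85 and 4.97 in W6, W7 and W8, and at 3.80, 8.83 and 11.2 in D4, D5 and D6. The groups overlapped, and without W4 the value was 0.37.

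IFIH1, the sensor named MDA5, stood at 35.8, 28.4 and 80.1 CPM in W1, W2 and W4, at 31.5, 36.5 and 18.4 in W6, W7 and W8, and at 22.7, 69.4 and 61.7 in D4, D5 and D6. Its log2 fold change was 0.74 (SE 0.49), and without W4 it was 0.14. The Han BB ewes W1 and W2 lay among the Han ++ ewes, and W4 alone was high.

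At the low end of the same comparison stood MX2 at -0.51 (SE 0.83), PSMB9 at -0.43 (SE 0.48), IRF7 at -0.34 (SE 0.72), TAP1 at -0.28 (SE 0.27) and ISG15 at -0.26 (SE 0.80), with no group of Han ewes apart from the other. Single ewes moved these values. PSMB9 was at -0.06 without W4 and -0.88 without W1, IRF7 at -0.09 and -0.86, ISG15 at 0.0092 and -0.96, and MX2 at 0.19 without W8. IRF7, the factor that amplifies interferon production, stood at 2.14, 1.12 and 0.803 CPM in W1, W2 and W4, at 2.05, 1.90 and 1.2 in W6, W7 and W8, and at 1.36, 4.91 and 1.06 in D4, D5 and D6. TAP1 stood at 38.6, 35.3 and 30.6 CPM in W1, W2 and W4, at 44.7, 45.6 and 36.5 in W6, W7 and W8, and at 52.2, 73.0 and 40.6 in D4, D5 and D6. The median over all 38 genes was 0.23, with 9 of 38 lower in Han BB, against 0.04 and 46.6% over all genes.

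**Figure D4:**
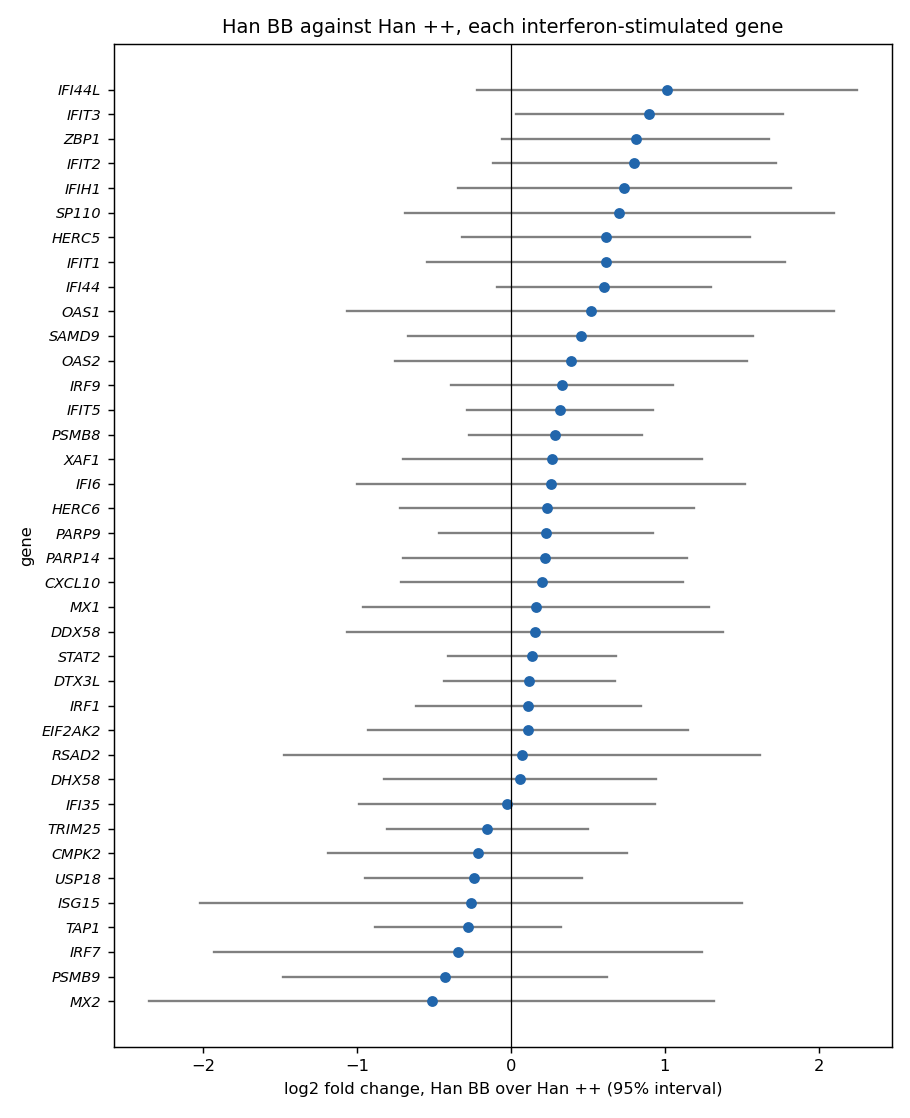
log2 fold change of each of the 38 genes in Han BB over Han ++, with its 95% interval from edgeR's fit to all 9 libraries. Intervals cross 0 for 37 genes, and IFIT3, at 0.90, is the exception before adjustment.

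The genes of the whole table whose log2 CPM followed IFI6 most closely over the 9 libraries were OSBPL2 (Pearson r = 0.958), KIAA0319, GDPD5, MAST1, TELO2, CC2D1A, BCL2L12, LOC101122803, CENPB and DTX3.1 (r = 0.935). These are a description over 9 libraries that also differ in breed, in depth and in the share of reads on LOC101101865, whose part in these correlations was not tested, and 0 of the 10 belong to the set. OSBPL2, for one, stood at 80.7 CPM in D4 and 78.3 in D5 against 47.4 to 61.7 in the other libraries. Within the set the closest by Pearson r were DHX58, a regulator of the RNA sensors (r = 0.928, rank 17 of all genes), ISG15 (r = 0.898, rank 39) and TAP1 (r = 0.859, rank 97), and the lowest was SP110 (r = -0.335). The order differed by rank correlation (Spearman rho), where STAT2 (0.917), ISG15 (0.917) and CXCL10 (0.9) were closest and DDX58 (-0.183) was lowest. DHX58 was then at 0.717 and TAP1 at 0.767, and TELO2 of the 10 genes above was at 0.65.

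The ligands themselves were near the limit of detection. Of 8 interferon genes listed, IFNE had 2 to 23 reads per library, IFNG 0 to 11 and IFNK 0 to 11, and the others had no row. IFNE had its fewest reads in D5.

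The receptors were present in every ewe. IFNAR1 stood at 119, 122 and 156 CPM in D4, D5 and D6, at 113, 146 and 180 in W1, W2 and W4, and at 142, 147 and 175 in W6, W7 and W8, so D5 was not apart. IFNAR2 was listed on 1 row with 10 reads or fewer and on another, IFNAR2.1, at 115, 57.8 and 90.4 CPM in Dorset, 73.0, 70.6 and 100 in Han BB and 75, 61.9 and 60.7 in Han ++, where D5 had the lowest value.

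The receptors of interferon gamma, IFNGR1 and IFNGR2, were also present in every ewe. IFNGR1 stood at 96.4, 65.3 and 189 CPM in D4, D5 and D6, at 119, 79.5 and 213 in W1, W2 and W4, and at 86.9, 85.5 and 41.0 in W6, W7 and W8, high in D6 and W4. IFNGR2 ran from 96.6 CPM in W8 to 136 in D4.

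Of the other genes of the pathway, 11 receptors and signalling genes, 15 genes of sensing and induction, 19 other interferon-induced genes and 11 genes of antigen presentation were tested in Han BB against Han ++, and edgeR called 0 of each. D5 was highest for 0 of 11, 1 of 15, 4 of 19 and 4 of 11 of them, against 12.3% of all genes. The 4 interferon-induced genes were ADAR, which edits double-stranded RNA, with UBA7, the enzyme that activates ISG15, PML and ZNFX1. TLR8, an endosomal sensor of single-stranded RNA, was the 1 of these 56 genes with an unadjusted p under 0.05, a share of 1.79% that is near the 1.97% of all genes.

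TLR8 stood at 18.2, 11.1 and 17.6 CPM in W1, W2 and W4, at 7.16, 5.34 and 5.43 in W6, W7 and W8, and at 2.34, 4.78 and 6.53 in D4, D5 and D6. All 3 Han BB ewes lay above all other ewes. Its log2 fold change in Han BB over Han ++ was 1.39 (SE 0.40, 95% interval 0.51 to 2.27, adjusted p = 0.9995 in edgeR), so it did not pass either.

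The 2 genes of the set with a row that were not tested were DDX60, with 0 to 14 reads per library, and RTP4, with 0 reads in all 9, which allows up to 3 reads, or 0.135 to 0.292 CPM.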

How the data were processed

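Ovary RNA of 9 ewes was sequenced, and the authors deposited 1 table of raw read counts per gene. Per the study's methods they aligned reads with TopHat, default settings, to Oar_v3.1 with its NCBI annotation and kept unique reads. No counting program or strand setting was found in the sources, and the library kit is named differently in the labels and the methods, so overlapping genes and near-identical copies are uncertain. Counts were tested with edgeR 4.0.16 (TMM, filterByExpr, quasi-likelihood F-test, 3 groups in 1 fit, Benjamini-Hochberg adjustment over all genes tested, R 4.3.3). Calls needed a 1.5-fold change with an adjusted p under 0.05. DESeq2 1.42.0, limma 3.58.1 and leaving out each library were alternatives. The scripts were tested on simulated data, and figures used matplotlib 3.10.9. Log2 CPM used a prior count of 2.

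Genes were matched by symbol, by older symbol or by gene number with a RefSeq table of another assembly, ARS-UI_Ramb_v3.0, used for names alone. Matching by gene number was chosen after the table was seen. Members, pathway lists (62 of 78 genes with a row) and marker lists (70 of 77) were chosen with earlier results of these data known. Named members were IFI6, the 5 highest and 5 lowest in Han BB against Han ++, the 5 lowest and 2 highest in Han against Dorset, and any with an unadjusted p under 0.05 in the first. SAMD9 and TLR8 were named by other rules, SAMD9 after its values were seen.

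Replicate libraries differed far beyond sampling noise, with a chi-square per degree of freedom of 62.8 or more, and each counted as 1 ewe. Sequences are not shown here. Some genes of the pathway lists are not reported here by name.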

Additional observations from a re-analysis of the deposited data

How the results depend on the processing

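With 3 ewes per group, small differences could not be resolved, and for 25 of 38 genes the interval in Han BB over Han ++ held a doubling. No paired analysis was possible because each ewe belonged to 1 group and the numbers do not link ewes across groups. Genes called of all tested were 0 in Han BB against Han ++, with 2 in DESeq2, 2 in limma and 0 to 0 with 1 library left out. In Han BB against Dorset they were 0, with 38 in DESeq2, 2 without the filter on low counts, 2 without W4 and D6, 1 with a term for those libraries, and 0 to 1 with 1 library left out (1 without W4). In Han ++ against Dorset they were 1, with 65 in DESeq2, 0 in limma, 11 without the filter, 22 without W4 and D6, 78 with the term, 0 from those 2 groups alone, and 0 to 5 with 1 library left out (5 without W4). In both Han groups against Dorset they were 0, with 88 in DESeq2, 6 without the filter, 6 without W4 and D6, 71 with the term, and 0 to 4 with 1 library left out (4 without W4). Why these counts differed was not tested.

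The set's median log2 fold change, with 1 library left out, ran from -0.58 to -0.016 in Han BB over Dorset, from -0.88 to -0.29 in Han ++ over Dorset, from -0.69 to -0.15 in both over Dorset and from 0.11 to 0.35 in Han BB over Han ++. The values nearest 0 in the 3 comparisons with Dorset came without D5. Of the named genes in Han BB over Han ++, MX2 turned to 0.0075 in limma and 0.34 with the term (-0.83 to 0.19 with 1 library left out). ISG15 turned to 0.0056 without W4 and D6 and 0.24 with the term (-0.96 to 0.10), IRF7 to 0.012 with the term, and IFI6 to -0.24 without W1 (up to 0.56). Their adjusted p stayed at 0.773 or more throughout, and the cause was not tested.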

Other observations

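Several genes of the set had a second row in the table. RTP4, which helps carry receptors to the cell surface, had 0 reads on its own row and 41 to 495 reads on a row named RTP4.1, which stood at 8.47, 22.3 and 3.52 CPM in D4, D5 and D6, at 9.92, 2.87 and 3.75 in W1, W2 and W4, and at 8.06, 8.82 and 5.16 in W6, W7 and W8, with D5 2.25 times as high as the next library. BST2, the tether that holds budding viruses, had no row, while the sheep copies BST-2A and BST-2B did. BST-2A stood at 5.94, 7.93 and 4.08 CPM in Dorset, 6.22, 4.90 and 1.34 in Han BB and 3.29, 3.21 and 1.84 in Han ++, and BST-2B at 17.1, 15.1 and 6.53, at 6.65, 8.27 and 2.94, and at 5.25, 4.12 and 8.93. The copies are alike in sequence, so the split of reads between them is uncertain. The second rows of EIF2AK2, IFIT1, IFIT5 and IRF1 held at most 58, 13, 7 and 24 reads in a library. These rows were chosen after their values were seen.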
